A study of Canis lupus familiaris with 29 samples.

Results

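C1QB, CTSK and FN1 were followed as 3 of the 24580 genes in the expression table of lymph nodes from dogs with diffuse large B-cell lymphoma. They were chosen by identifier. The study listed C1QB and FN1 for the difference between days with valspodar and CTSK for the difference between days with placebo. Their values in those comparisons are therefore given as a description, without a test. All 3 passed the filter on low values, an average of 1 FPKM or more across libraries, as did 11677 genes in all. FN1 passed only through the libraries of the later day. FPKM is the number of fragments per kilobase of transcript, scaled to the fragments mapped in the library, so levels of different genes can be compared per unit of length.

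The 29 RNA-seq libraries came from nodes of 15 dogs with untreated lymphoma, taken at diagnosis (Day 0) and after several days of capsules (Day 4). In the valspodar group 9 dogs took 7.5 mg/kg of the drug by mouth, 2 times a day, and in the placebo group 6 dogs took matching capsules (0 mg/kg). Valspodar blocks ABCB1, a pump that moves drugs out of cells. Day 0 gave 6 placebo and 9 valspodar libraries, and Day 4 gave 5 and 9, so 14 dogs were sampled on both days (PD04, a placebo dog, lacked Day 4). The labels gave ages of 3.8 to 11.6 years for 14 dogs, 5.3 to 10.4 with placebo and 3.8 to 11.6 with valspodar. The dogs were pets of several breeds and carried no engineered allele, and doxorubicin started only after the Day 4 biopsy. Wedges of node were cut on Day 0 and tru-cut needle cores were taken on Day 4, so the kind of biopsy and the day cannot be told apart. Dog names begin with MN (8 dogs), PD (4) or PENN (3). Relative sequencing depth, read from the steps between low values, was 0.287 in the Day 4 library of MN02 and 0.847 to 1.85 in the others. The 10 most abundant genes held 40.6% of the summed FPKM in the Day 4 library of PENN04 and 9.86% to 32.7% in the others.

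C1QB encodes one of the chains of C1q, the recognition molecule that starts the classical complement pathway by binding antibody bound to antigen. Unlike most complement proteins, which the liver makes, C1q is made largely by macrophages and dendritic cells, and in lymphoid tissue it takes part in the clearance of dying cells. CTSK encodes cathepsin K, a lysosomal protease known for cutting collagen in bone under osteoclasts and also made by some macrophages and fibroblasts. FN1 encodes fibronectin, a glycoprotein that cells assemble into fibres of the extracellular matrix and bind through integrins. On the CanFam3 genome C1QB lies on chromosome 2 from 76649362 to 76655660 (ENSCAFG00000032344). C1QC, which encodes another C1q chain, lies 4325 bases away, from 76659986 to 76664962 (ENSCAFG00000014639). CTSK lies on chromosome 17 from 59929301 to 59936715 (ENSCAFG00000012093), and FN1 on chromosome 37 from 22455905 to 22523117 (ENSCAFG00000014345).

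Per unit of length, CTSK and C1QB were well expressed and FN1 was low. Their means over the 29 libraries were 50.4 FPKM for CTSK, 41.0 FPKM for C1QB and 3.49 FPKM for FN1. The medians were 35.1, 28.7 and 0.919 FPKM, and 1 library (PD03 on Day 4, 58.7 FPKM) weighed on the mean of FN1. The mean of CTSK was above that of 81.8% of the genes tested, that of C1QB above 77.5% and that of FN1 above 15.9%. FN1 stood under 1 FPKM in 16 of 29 libraries. On Day 0 it averaged 0.842 FPKM with placebo and 0.9996 with valspodar, under the filter of 1. It passed the filter through Day 4, with means of 2.08 and 8.52 FPKM. All 3 genes varied widely between libraries. The SD of log2(FPKM + 1) was 1.35 for C1QB, 1.03 for CTSK and 1.20 for FN1, against a median of 0.349 over the genes tested, and 92.9% to 96.2% of those genes varied less.

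C1QB was measured in the placebo nodes of Day 0 at 4.59 FPKM (lowest), 28.4 (median) and 55.4 (highest), with a mean of 26.2 ± 19.2 (SD, n = 6). In the placebo nodes of Day 4 it was at 37.2 FPKM in PENN04, 43.8 in PENN05, 31.4 in MN05, 23.3 in MN08 and 10.6 in MN09, a mean of 29.3 ± 12.9 (SD, n = 5). These Day 4 values all lay within the range of Day 0. With valspodar the values of Day 0 had a lowest of 7.64, a median of 22.6 and a highest of 83.7 FPKM, with a mean of 29.9 ± 23.3 (SD, n = 9). On Day 4 they had a lowest of 3.88, a median of 64.4 and a highest of 177 FPKM, with a mean of 68.5 ± 60.4 (SD, n = 9). The Day 4 valspodar nodes held both the lowest and the highest C1QB value of the series, in MN06 and PD05. In order of mean, placebo Day 0, placebo Day 4 and valspodar Day 0 lay closer to each other than the SD of any of them. Valspodar Day 4 stood above them by less than its own SD. In a piece of node, fewer cells that express a gene and less of its RNA per cell cannot be told apart.

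CTSK in the placebo nodes of Day 0 had a lowest of 15.5, a median of 22.2 and a highest of 48.2 FPKM, with a mean of 27.9 ± 13.97 (SD, n = 6). On Day 4 it was at 198 FPKM in PENN04, 61.8 in PENN05, 35.4 in MN05, 41.2 in MN08 and 17.1 in MN09, a mean of 70.6 ± 72.7 (SD, n = 5). The PENN04 library, the one with 40.6% of its FPKM in 10 genes, held the highest CTSK value of the series, and without it the mean was 38.9 FPKM. The valspodar nodes of Day 0 had a lowest of 13.2, a median of 26.8 and a highest of 121 FPKM, with a mean of 40.2 ± 33.0 (SD, n = 9). Those of Day 4 had a lowest of 19.4, a median of 48.9 and a highest of 172 FPKM, with a mean of 64.4 ± 50.6 (SD, n = 9). MN03 was highest among the valspodar dogs on both days. In order of mean, placebo Day 0, valspodar Day 0, valspodar Day 4 and placebo Day 4 overlapped throughout, and each neighbouring pair differed by less than the larger of its SDs.

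FN1 in the placebo nodes of Day 0 had a lowest of 0.0555, a median of 0.705 and a highest of 1.60 FPKM, with a mean of 0.842 ± 0.616 (SD, n = 6). On Day 4 it was at 3.65 FPKM in PENN04, 0.988 in PENN05, 1.44 in MN05, 3.07 in MN08 and 1.27 in MN09, a mean of 2.08 ± 1.20 (SD, n = 5). The groups overlapped, with 2 of the 5 Day 4 values above the highest of Day 0. With valspodar the values of Day 0 had a lowest of 0.0351, a median of 0.442 and a highest of 2.85 FPKM, with a mean of 0.9996 ± 1.019 (SD, n = 9). On Day 4 they had a lowest of 0.170, a median of 0.528 and a highest of 58.7 FPKM, with a mean of 8.52 ± 19.0 (SD, n = 9). The Day 4 median was below that of the placebo group although the mean was above it. The library of PD03 alone stood at 58.7 FPKM, and without it the mean was 2.25 FPKM. In order of mean, placebo Day 0, valspodar Day 0, placebo Day 4 and valspodar Day 4, each of the steps between neighbours was smaller than the larger SD of the pair.

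**Figure D1:**
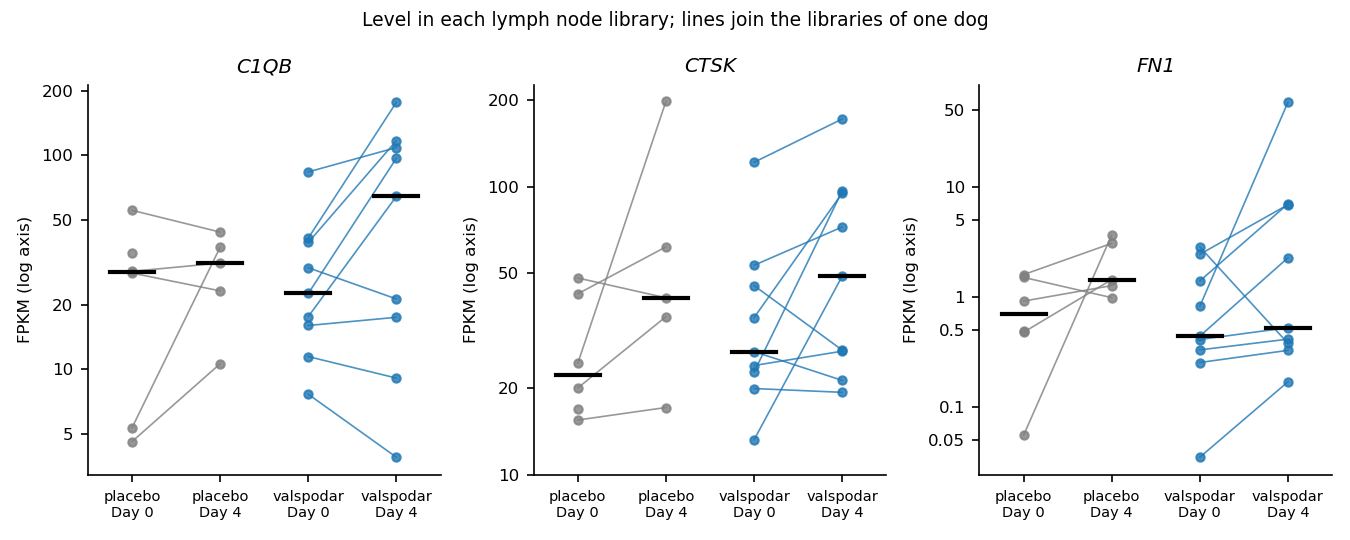
FPKM of C1QB, CTSK and FN1 (vertical log axes) in each of the 29 libraries by treatment and day, with lines joining the libraries of a dog and black bars at group medians. The groups overlap for every gene, and the FN1 point at 58.7 FPKM (PD03, valspodar Day 4) and the CTSK point at 198 FPKM (PENN04, placebo Day 4) stand far above the rest of their groups.

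None of the 3 genes passed an adjusted p-value of 0.05 where it was tested with limma on log2(FPKM + 1), and hardly any other gene did. Between days, 0% of the genes tested passed in the placebo group and 0% in the valspodar group, where 430 and 157 genes had an unadjusted p under 0.05. When the fits held a term for each dog, these unadjusted counts were 803 with placebo and 1314 with valspodar, and still no gene passed after adjustment (0 in each). Between treatments, 0% passed on Day 0 (503 genes at an unadjusted p under 0.05) and 0.00856% passed on Day 4, which is 1 gene (485 genes). For the difference of the 2 changes it was 0%, with 81 genes at an unadjusted p under 0.05, or 428 with a term for each dog (0 after adjustment). With placebo, FN1 differed between days by 0.73 on the log2(FPKM + 1) scale (standard error 0.30, 95% interval 0.08 to 1.38, adjusted p = 1 in limma). Its unadjusted p was under 0.05, as it was, with a higher level on Day 4, in 2.08% of the genes tested. FN1 passed the filter on low values only through Day 4, so this test is not free of that choice. With the dog as a block the FN1 difference was 0.68, with an interval that included 0 (-0.18 to 1.55, adjusted p = 0.682 in limma). Without PENN04 it was 0.41, and with a pseudocount of 0.1 it was 1.41 (adjusted p = 1 in limma for both). With placebo, C1QB differed between days by 0.46 (standard error 0.65, 95% interval -0.96 to 1.89, adjusted p = 1 in limma), and by 0.015 without PENN04. With valspodar, CTSK differed between days by 0.58 (standard error 0.45, 95% interval -0.36 to 1.53, adjusted p = 1 in limma). With the dog as a block its standard error was 0.29 and its adjusted p in limma was 0.469.

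The differences on which the study had picked the genes are given without a test. CTSK with placebo was 0.95 higher on Day 4 (standard error 0.55), and C1QB and FN1 with valspodar were 0.71 (0.65) and 0.90 (0.63) higher, all on the log2(FPKM + 1) scale. Without PENN04 the CTSK difference was 0.45, and without PD03 the FN1 difference was 0.39. These fits held no dog term. With the dog as a block, CTSK with placebo was at 0.84 (standard error 0.47). C1QB and FN1 with valspodar were then at 0.71 (0.35) and 0.90 (0.54). Over the genes tested the median difference between days was 0.0018 with placebo and -0.0078 with valspodar. The pseudocount of 1 makes differences of FN1, which is near 1 FPKM, smaller on this scale than as a ratio.

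Before treatment the groups did not differ detectably. On Day 0, valspodar minus placebo was 0.32 for C1QB (95% interval -0.92 to 1.56), 0.35 for CTSK (-0.53 to 1.23) and 0.04 for FN1 (-0.61 to 0.69), each with an adjusted p of 1 in limma. With single dogs left out, the Day 0 difference of C1QB ran from -0.05 (without MN09) to 0.62 (without PENN05) and was -0.01 without PENN04, and that of CTSK ran from 0.12 (without MN03) to 0.53 (without MN08). On Day 4 the differences were 0.56 for C1QB (-1.14 to 2.27), -0.02 for CTSK (-1.30 to 1.26) and 0.22 for FN1 (-1.54 to 1.97), with adjusted p-values of 1 in limma for each after rounding to 3 digits. Without PD03 the Day 4 difference of FN1 was -0.30, and without PENN04 that of CTSK was 0.47. That of C1QB was 0.25 without MN09, 0.30 without PD05 and 0.95 without MN06. These fits use the same libraries as the comparisons on which the genes were picked. The change with valspodar minus the change with placebo was 0.25 for C1QB (standard error 0.99), -0.37 for CTSK (0.73) and 0.17 for FN1 (0.87), given without a test because it holds those comparisons. Each of these differences was smaller than its standard error. They moved with single dogs and settings: C1QB was at 0.08 with a term for each dog, 0.39 without PD03 and 0.70 without PENN04, CTSK was at 0.13 without PENN04, and FN1 was at -0.34 without PD03, 0.49 without PENN04 and -0.19 with a pseudocount of 0.1.

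**Figure D2:**
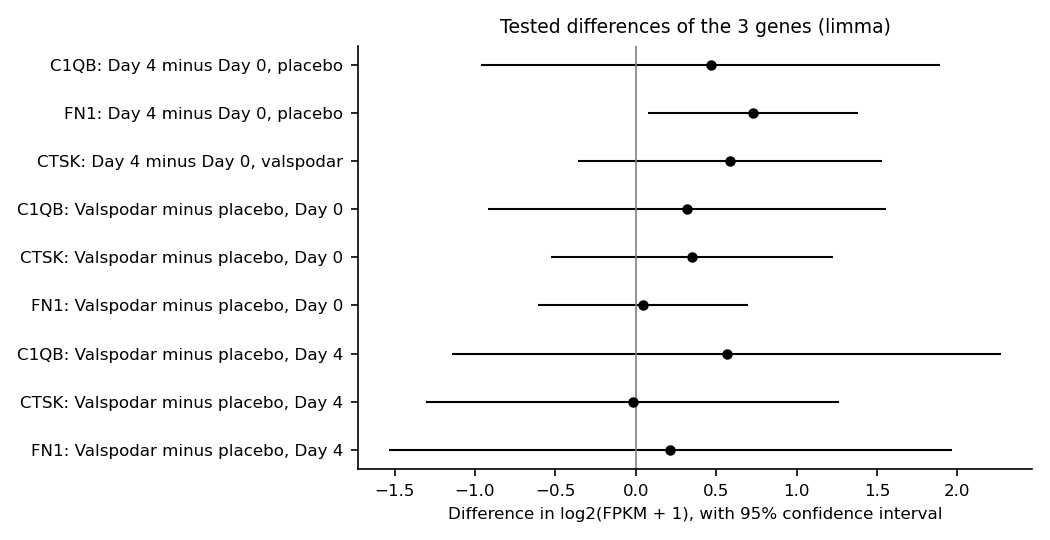
Differences of C1QB, CTSK and FN1 in log2(FPKM + 1) in the comparisons on which they were not picked, as limma estimates (points) with 95% confidence intervals (bars). The interval of FN1 between days with placebo (0.08 to 1.38) lies above 0 in this fit without a dog term (-0.18 to 1.55 with the dog as a block), and the other 8 intervals include 0. FN1 passed the filter on low values only through Day 4.

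Within dogs, C1QB was higher on Day 4 in 3 of 5 placebo dogs, CTSK in 4 and FN1 in 4. At least 3 rises were seen in 49.0% of the genes tested and at least 4 in 22.5%. With valspodar, C1QB and CTSK were each higher in 6 of 9 dogs, and 26.2% of the genes tested were higher in at least as many. FN1 was higher in 8 of 9 dogs, and 2.98% of genes were higher in at least as many. This count of FN1 comes from the comparison on which the gene was picked. Exact two-sided sign-flip permutation tests of the mean change within dogs gave p = 0.4375 for C1QB with placebo (mean 0.64 ± 1.23 SD, n = 5), p = 0.1875 for FN1 with placebo (0.68 ± 0.92, n = 5) and p = 0.125 for CTSK with valspodar (0.58 ± 0.96, n = 9). The smallest p that 5 dogs allow is 0.063, so this group could not reach 0.05, and 9 dogs allow 0.00390625. Without PENN04 the mean change with placebo was 0.15 for C1QB and 0.32 for FN1.

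Single dogs carried much of the summed rises with placebo, and of that of FN1 with valspodar. In the placebo group PENN04 rose from 5.33 to 37.2 FPKM for C1QB, from 24.4 to 198 for CTSK and from 0.0555 to 3.65 for FN1, which was 78.6%, 82.7% and 56.4% of the summed rises of those genes. In these PENN04 libraries the summed FPKM of the neutrophil genes with an identifier (CSF3R, ITGAM, MMP9 and SERPINA1, 4 of 9 on the list) went from 5.60 to 332. That was the highest sum of the series. The neutrophil sum ranged from 5.10 to 70.3 FPKM in the placebo nodes of Day 0 and from 4.999 to 332 on Day 4. In the valspodar nodes it ranged from 0.557 to 55.1 on Day 0 and from 2.16 to 47.1 on Day 4. None of the 4 genes was at 0 in any library. Other genes with a symbol also rose in PENN04. CD5L went from 2.83 to 28.8 FPKM, IL18 from 2.73 to 23.2, PLAU from 0.402 to 6.23 and DNASE1L3 from 17.0 to 86.4. These genes and the neutrophil genes have a symbol here because the study listed them for a difference between days. Their part in the result was not tested. With valspodar the largest single share of the summed rises was 37.6% for C1QB (PD05) and 30.6% for CTSK (MN02).

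With valspodar, C1QB was about 3 to 4 times its Day 0 level in 4 of the 9 dogs. PD05 rose from 41.1 to 177 FPKM (4.31-fold), MN02 from 22.6 to 97.1 (4.29-fold), PENN03 from 17.6 to 64.4 (3.65-fold) and MN07 from 39.2 to 117 (2.99-fold). MN03 and PD01 rose by less, from 83.7 to 109 and from 16.0 to 17.5. MN06 went from 7.64 to 3.88 FPKM, PD03 from 29.8 to 21.3 and MN10 from 11.5 to 9.10. The same dogs were higher and lower for CTSK: MN02 went from 22.7 to 96.6 FPKM, PENN03 from 13.2 to 48.9 and PD05 from 35.1 to 94.96, while PD03 went from 45.4 to 27.1.

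FN1 took another course in several of them. In PD03, where both other genes were lower on Day 4, FN1 went from 0.824 to 58.7 FPKM, which was 82.5% of the summed rises with valspodar. The summed neutrophil genes were at 15.2 and 4.43 FPKM in these 2 libraries, and the relative depth was 1.01 and 1. In MN02, where C1QB and CTSK rose about 4-fold, FN1 went from 2.85 to 0.380 FPKM, in the library with a relative depth of 0.287. MN03 went from 2.44 to 6.90 FPKM and MN07 from 1.40 to 7.01. PD05 went from 0.442 to 2.27 FPKM. In MN06, MN10, PD01 and PENN03 the FN1 level stayed under 1 FPKM on both days, with 0.331 and 0.415, 0.255 and 0.328, 0.412 and 0.528, and 0.0351 and 0.170 FPKM.

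**Figure D3:**
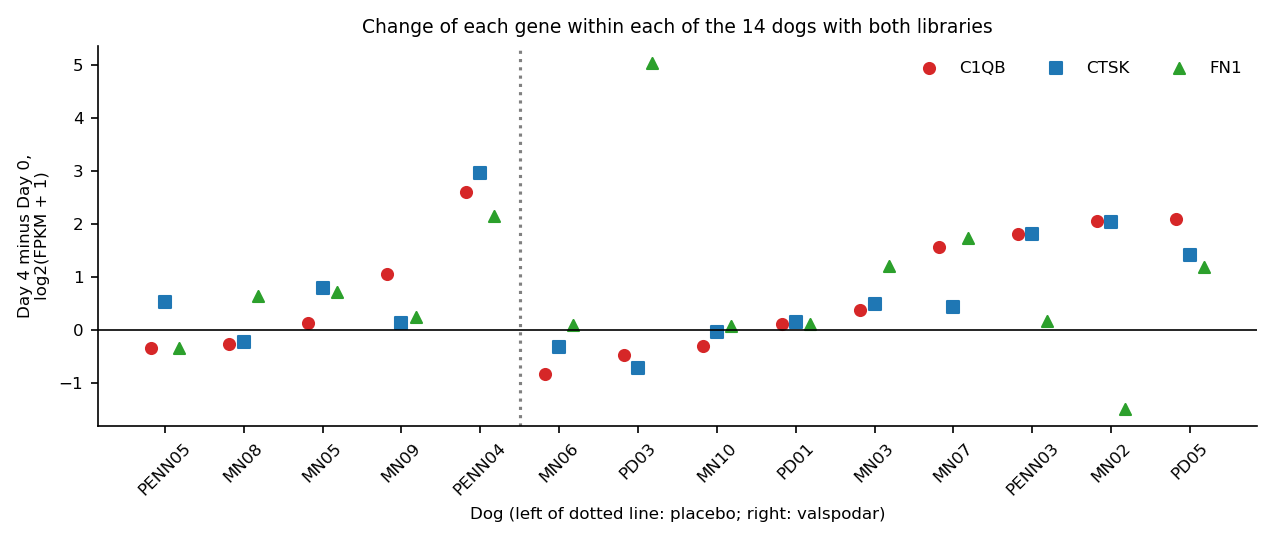
Day 4 minus Day 0 in log2(FPKM + 1) for C1QB (circles), CTSK (squares) and FN1 (triangles) in each of the 14 dogs with both libraries, placebo dogs left of the dotted line and valspodar dogs right of it. C1QB and CTSK lie on the same side of 0 in 13 of 14 dogs, while FN1 stands at 5.03 in PD03 and -1.48 in MN02, opposite to both.

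C1QB and CTSK changed in the same direction in 13 of 14 dogs, both higher in 9 and both lower in 4, with PENN05 the exception. C1QB and FN1 shared a direction in 9 of 14 dogs, CTSK and FN1 in 8, and all 3 genes in 8. The changes of C1QB and CTSK correlated across the 14 dogs with a Pearson r of 0.86 and a Spearman rho of 0.82, given as a description. Those of C1QB and FN1 gave r of -0.07 and rho of 0.25, and those of CTSK and FN1 gave r of -0.22 and rho of -0.03. Both values of r include PD03, where FN1 changed by 5.03 and both other genes fell. They were not computed without that dog. C1QC, the other C1q chain with an identifier, moved with C1QB in 14 of 14 dogs. The study listed both for the difference between days with valspodar.

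The levels of C1QB and CTSK correlated across dogs, with a Pearson's r in log2(FPKM + 1) that passed on both days. In FPKM without a log it did not pass on Day 4 (r of 0.51, permutation adjusted p = 0.0845). In log2(FPKM + 1) on Day 4 (n = 14), Pearson's r was 0.79 (permutation p = 0.00095, adjusted p = 0.0057) and Spearman's rho was 0.85 (permutation p = 0.00028, adjusted p = 0.00168). The adjustment was over 6 relations, 3 pairs of genes on each of 2 days, and tests were two-sided. Without the dogs farthest from the median of C1QB, MN06 and PD05, r was 0.79 (permutation adjusted p = 0.0158). On Day 0 (n = 15) r was 0.65 (permutation p = 0.00748, adjusted p = 0.0224), but rho was 0.58 (permutation p = 0.0258, adjusted p = 0.0775), which did not pass after adjustment. Without PENN04 and MN09, the farthest from the median, r on Day 0 was 0.66 (permutation adjusted p = 0.0425), and without MN03 it was 0.52 (permutation adjusted p = 0.159). Within the 8 MN dogs r was 0.82 on Day 0 and 0.91 on Day 4 (exact permutation, adjusted p = 0.0335 and 0.0161). The valspodar dogs alone (n = 9) gave r of 0.80 and 0.90 (exact permutation, adjusted p = 0.0283 and 0.0121). The 6 placebo dogs of Day 0 gave r of 0.48 (exact permutation, adjusted p = 0.325 over the 3 relations of that day). No correlation was computed in groups under 6 dogs, which are the 5 placebo dogs of Day 4, the 4 PD dogs and the 3 PENN dogs.

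Of the 4 relations of FN1, Pearson's r passed in 1 after adjustment and Spearman's rho in none. On Day 0 its r was 0.62 with CTSK (permutation p = 0.0127, adjusted p = 0.0254) and 0.54 with C1QB (permutation p = 0.0365, adjusted p = 0.0548), with rho of 0.51 and 0.53 (permutation p = 0.0556 and 0.0474, adjusted p = 0.0834 for both). The relation with CTSK did not hold without MN03 and MN07, the dogs farthest from the median of CTSK, where r was 0.42 (permutation adjusted p = 0.223). It depended on other dogs as well, with r of 0.81 without MN02 (permutation adjusted p = 0.00228) and 0.56 without PENN03 (permutation adjusted p = 0.0565), and within the 8 MN dogs it was 0.56 (exact permutation, adjusted p = 0.140). With C1QB, r without MN09 and PENN04 was 0.59 (permutation adjusted p = 0.0707), and within the 8 MN dogs it was 0.60 (exact permutation, adjusted p = 0.140). On Day 4 its r was 0.18 with CTSK (permutation p = 0.553, adjusted p = 0.553) and 0.19 with C1QB (permutation p = 0.520, adjusted p = 0.553), with rho of 0.35 and 0.31 (permutation p = 0.215 and 0.272, adjusted p = 0.257 and 0.272). Without the Day 4 library of PD03 these r were 0.60 (permutation adjusted p = 0.0438) and 0.49 (permutation adjusted p = 0.0949). Within the 8 MN dogs on Day 4 they were 0.62 and 0.64 (exact permutation, adjusted p = 0.140 for both). Without the 2 dogs farthest from the median of the first gene of each pair they were 0.004 and 0.11 (permutation adjusted p = 0.991 and 0.912).

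The level of a dog on Day 0 carried over to Day 4 for C1QB, with r of 0.67 and rho of 0.69 (n = 14, permutation p = 0.00948 and 0.00819, adjusted over the 3 genes 0.0284 and 0.0246), and r was 0.75 without the 2 farthest dogs. For CTSK r was 0.47 and rho 0.43 (permutation adjusted p = 0.139 and 0.188), and for FN1 r was 0.23 and rho 0.36 (permutation adjusted p = 0.455 and 0.209). For CTSK r was 0.17 without the 2 farthest dogs, and for FN1 it was 0.35.

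**Figure D4:**
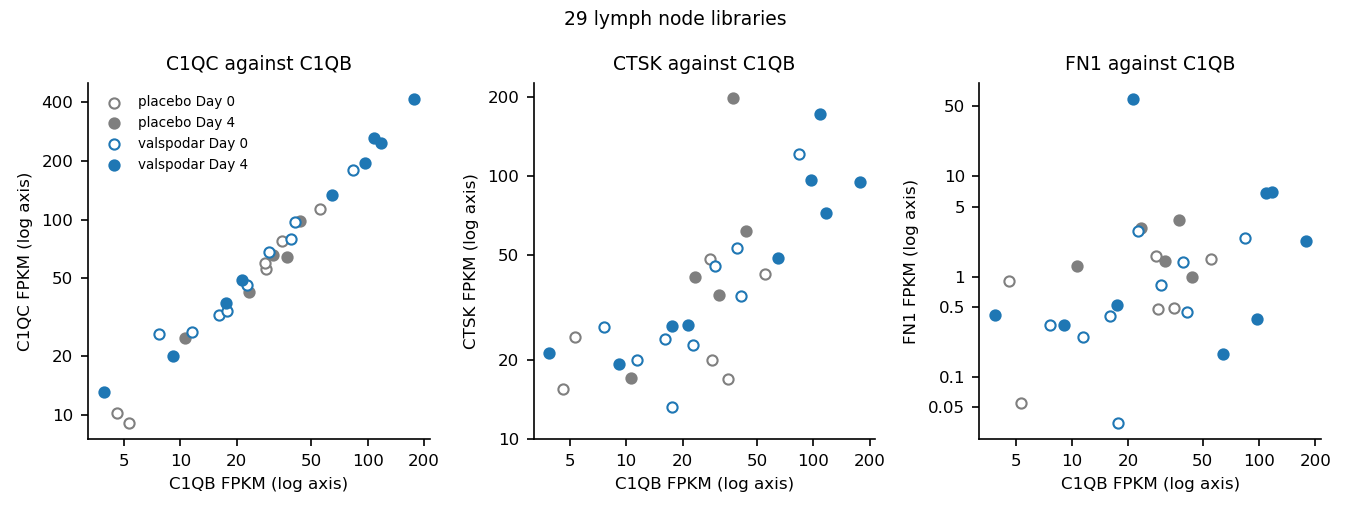
C1QC, CTSK and FN1 (vertical log axes, FPKM) against C1QB (horizontal log axes, FPKM) in the 29 libraries, open for Day 0 and filled for Day 4, grey for placebo and blue for valspodar. C1QC lies near a line, at 1.70 to 3.39 times C1QB, CTSK follows more loosely at 0.483 to 5.49 times, and FN1 is scattered.

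Among the 11676 other genes tested, C1QC was the gene most like C1QB, with a Spearman rho of 0.990 over the 29 libraries. It stood at 1.70 to 3.39 times the FPKM of C1QB (median 2.14), a 1.99-fold range, while the ratio of CTSK to C1QB had an 11.4-fold range, from 0.483 in PD04 on Day 0 to 5.49 in MN06 on Day 4. IL18, which encodes an inflammatory cytokine made by macrophages, was the 6th gene in this order, with a rho of 0.904. Of the 10 genes most like C1QB, 2 have a symbol in the tables used here, and of those of CTSK and FN1 none has. Symbols are known only for genes that the study listed for a difference between days. C1QC and IL18 thus share with C1QB a choice made on these libraries. The 10th rho was 0.896 for C1QB, 0.878 for CTSK and 0.791 for FN1. One gene, ENSCAFG00000016641, was among the 10 of both C1QB (rho 0.898) and CTSK (rho 0.907), and the first for FN1 was ENSCAFG00000002069 (rho 0.891).

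C1QB and CTSK also shared most of their wider neighbourhood. Of the 100 genes most like each, 74 were in both lists (74% of each), against 4 for C1QB and FN1 and 7 for CTSK and FN1. Among the 500 most like each, the shared share was 72.6% for C1QB and CTSK, 42.8% for C1QB and FN1 and 47% for CTSK and FN1. CTSK was number 88 in the order for C1QB (rho 0.79) and C1QB number 80 in that for CTSK, whereas FN1 was number 745 for C1QB (rho 0.44) and 442 for CTSK (rho 0.52). A rho above 0.7 was reached by 173 genes with C1QB, 154 with CTSK and 42 with FN1, and the median over all genes was -0.0185 for C1QB, -0.0177 for CTSK and -0.0062 for FN1. These are descriptions across 29 libraries, which come from 15 dogs, and each library brings its own depth and biopsy to every gene.

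Some other genes with a symbol were chosen after their values were seen. They have a symbol here because the study listed them for a difference between days, as it did the 3 genes. DNASE1L3, a secreted DNase of macrophages and dendritic cells, had a rho of 0.85 with C1QB, 0.79 with CTSK and 0.56 with FN1. CD5L, a protein of tissue macrophages, had 0.78, 0.61 and 0.45. PLAU, the urokinase that activates plasminogen, was nearer to CTSK (rho 0.81) than to C1QB (0.70) or FN1 (0.45). Of the 4 neutrophil genes, 4 had a higher rho with FN1 than with C1QB or CTSK over the 29 libraries, but only 3 did on Day 0 and 2 on Day 4. CSF3R, the receptor of granulocyte colony-stimulating factor, had 0.62 with FN1 and 0.37 with C1QB, and ITGAM, an integrin chain of myeloid cells, had 0.58 and 0.42. TROAP, which takes part in mitosis, had 0.68 with CTSK, 0.57 with C1QB and 0.36 with FN1. The differences between these correlations were not tested.

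**Figure D5:**
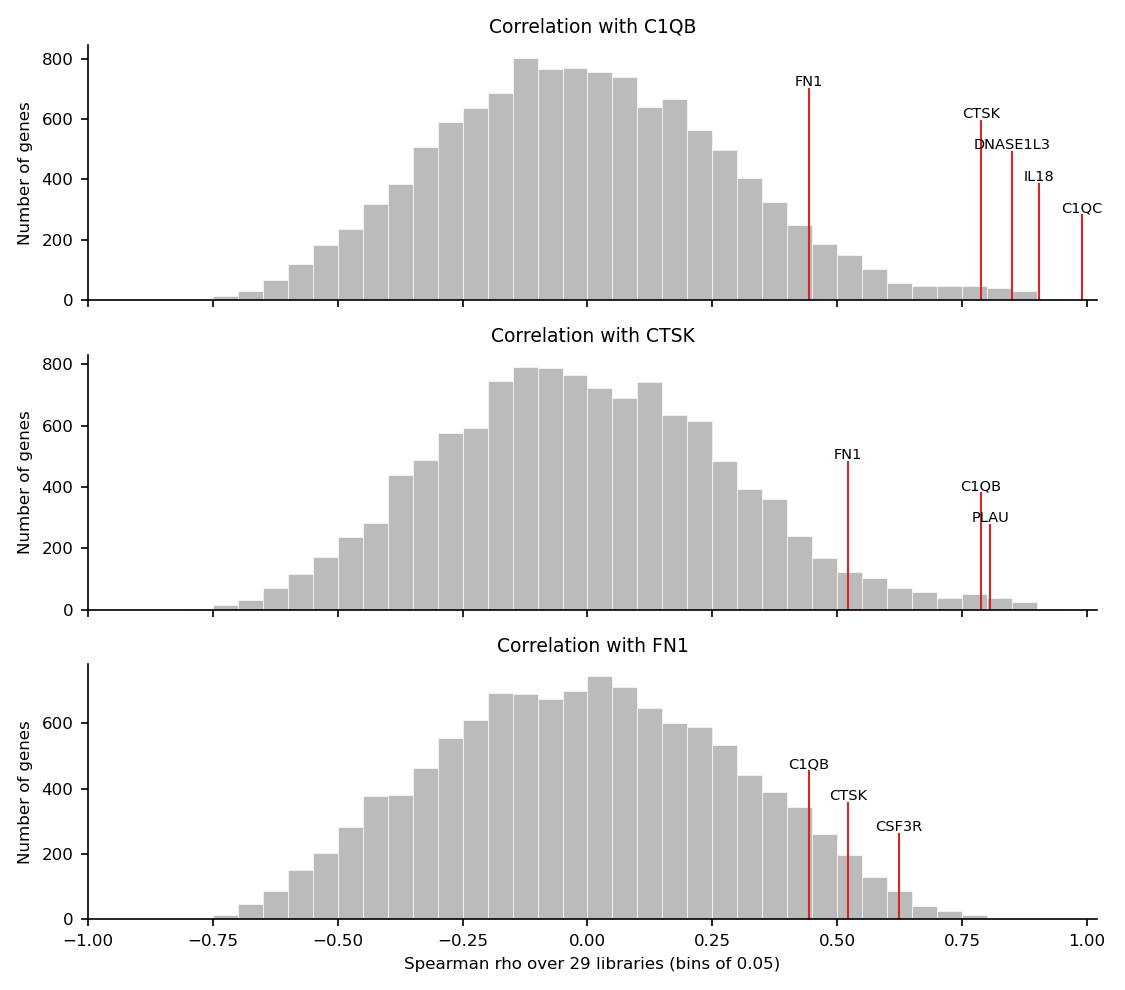
Number of genes tested (vertical) by their Spearman rho over the 29 libraries with C1QB, CTSK or FN1 (horizontal, bins of 0.05), with red lines at named genes. C1QC at 0.990 and IL18 at 0.904 stand at the far right for C1QB, CTSK and C1QB stand at 0.79 with each other, and FN1 lies at 0.44 and 0.52, nearer the bulk of genes.

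The label of these genes as macrophage and matrix genes could not be checked with marker lists. Of 20 macrophage markers, 1 (CD5L) is tied to an identifier in the tables used here. Of 25 complement genes it was 3, of 16 cathepsins and their inhibitors 1, of 29 matrix genes 1, and of 14 matrix proteases and inhibitors 2. For the 10 fibronectin receptors, and for the lists of B cells, T cells, fibroblasts and endothelial cells, it was 0. CD5L was above 0 in every library and ranged from 0.836 to 46.8 FPKM in the placebo nodes of Day 0, from 1.49 to 28.8 on Day 4, and from 2.64 to 13.0 and 1.97 to 83.2 in the valspodar nodes of Day 0 and Day 4.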

How the data were processed

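Lymph node RNA was sequenced from dogs with lymphoma on Day 0 and Day 4. The authors trimmed reads (Trimmomatic 0.33), mapped them to CanFam3 (HISAT2 2.0.2), estimated abundance with Cufflinks 2.2.1 and deposited FPKM values normalized by Cuffnorm, 1 table with a column for each of 29 libraries. Groups and dogs came from the sample titles. FPKM values give no counts, so depth is relative: the ratios of 2498 low genes between libraries were fitted, and all 406 pairs lay within 0.1 on the log2 scale. In the shallowest library, MN02 on Day 4, 424 of 464 low values lay within 0.06 of 1, 2 or 3 steps and 2 lay midway between steps. No counting interval is given.

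The R package limma (3.58.1, R 4.3.3) fitted log2(FPKM + 1) with a mean-variance trend, for the 11677 genes that averaged 1 FPKM or more, with Benjamini-Hochberg adjustment over these genes and a threshold of 0.05. Each fit held only the groups compared, with no dog term, since the study's own test (Cuffdiff) names none. Pairing follows the dog named in the titles. As a check, how far the Day 0 and Day 4 libraries of a dog departed from their groups correlated across genes at 0.199 to 0.678 (median 0.504) in the 14 pairs. Correlations used 100000 permutations, or all of them under 10 dogs. The fits and correlations were tested on simulated data.

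The genes, lists and tests were chosen with earlier results of these data known. Genes named are the 3 genes, C1QC, and the 10 genes with the highest Spearman rho with each. Other symbols named, and the omission of the Day 4 libraries of PENN04, MN02 and PD03, were chosen after seeing values. Symbols and coordinates came from the study's gene tables, which name 23 identifiers. These tables hold only genes that the study listed for a difference between days, so every gene named shares that choice. Python 3.11.15, numpy 2.4.6, pandas 2.3.3, scipy 1.17.1 and matplotlib 3.10.9 were used.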

Additional observations from a re-analysis of the deposited data

Results flagged for a closer look

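The levels of the 3 genes in 4 groups and their changes in 2 groups make 18 sets of values, and in 5 of them one dog stood far from the others by Dixon's ratio, which divides the distance to its neighbour by the spread of the set. Chance flags about 1 set in 20 when values are normal and sets independent. Neither holds for skewed FPKM levels in which dogs and genes recur, and the sets of CTSK with placebo and of C1QB and FN1 with valspodar belong to the comparisons on which these genes were picked. For FN1 with valspodar, PD03 stood apart on Day 4 at 58.7 FPKM (ratio 0.883) and in its change of 5.03 on the log2(FPKM + 1) scale (ratio 0.506). For CTSK with placebo on Day 4, PENN04 stood apart at 198 FPKM (ratio 0.752). MN03 stood apart with valspodar on Day 0, before the drug was given, for both C1QB at 83.7 FPKM (ratio 0.561) and CTSK at 121 FPKM (ratio 0.629). In the same library the summed neutrophil genes (CSF3R, ITGAM, MMP9 and SERPINA1) were at 55.1 FPKM against a group median of 8.16. IL18 at 20.4, PLAU at 12.2 and DNASE1L3 at 128 FPKM were also the highest of the group. CD5L was not, at 8.15 FPKM against a group median of 4.72 and a highest of 13.0 in PD03. Their part in the result was not tested.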

How the results depend on the processing

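None of the 3 genes passed an adjusted p of 0.05 in limma under any alternative run. The counts of genes past that threshold went from 0 to 1 between days with placebo without the filter on low genes and between treatments on Day 0 with robust eBayes or with all 4 groups in one fit, and ranged from 0 to 1 with each dog left out (1 without PENN05 and 1 without PD04). Fits with the dog as a replicate block, run between days and for the difference of the 2 changes, gave 0 genes and changed no call, with FN1 at 0.68 with placebo (adjusted p = 0.682 in limma). At a minimum mean of 5 FPKM, FN1 was not tested.

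Differences near 0 changed sign. Between treatments on Day 4, FN1 was at -0.18 with a pseudocount of 0.1 and -0.30 without the Day 4 library of PD03, and CTSK was at 0.47 without that of PENN04 and 0.087 without that of PD03. With each dog left out they ranged from -0.30 to 0.41 for FN1 and from -0.39 to 0.47 for CTSK, and on Day 0 from -0.048 to 0.62 for C1QB and from -0.10 to 0.16 for FN1. The mean change of CTSK within valspodar dogs ranged from 0.40 to 0.75, the latter without PD03 (exact sign-flip permutation p = 0.046875, or 0.140625 adjusted over the 3 such tests, which does not pass).

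For C1QB with CTSK, r on Day 4 was 0.51 in FPKM without a log, not past the threshold, and on Day 0 it was 0.48 in placebo dogs only and 0.52 to 0.73 with each dog left out, the lowest without MN03. For C1QB with FN1 on Day 0, r ranged from 0.43 to 0.65 with each dog left out and passed without MN02, MN09, PD04 or PD05. For CTSK with FN1 on Day 0, r did not pass in FPKM without a log (0.59), without the 2 farthest dogs (0.42), in MN (0.56), valspodar (0.628) or placebo dogs only (0.628), or without MN03 or PENN03 (range over dogs left out 0.48 to 0.81). On Day 4 it passed at 0.60 without PD03, with a range of 0.080 to 0.60. In FPKM without a log, FN1 on Day 4 gave r of -0.112 with C1QB and -0.111 with CTSK. Group means moved most without PD03 for FN1 with valspodar on Day 4 (8.52 to 2.25 FPKM) and without PENN04 for CTSK with placebo on Day 4 (70.6 to 38.9 FPKM). The cause of these shifts was not tested. Relative depth gives no counts, so how far depth limits FN1, under 1 FPKM in 16 of 29 libraries, is unknown.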
